A study of Mus musculus with 2 samples.

Results

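The miR-30 family was examined in small RNA libraries of unstimulated BMDMs, macrophages differentiated in culture from the bone marrow of wild-type C57/BL6 mice 8 weeks of age, which the methods describe as adult males. Its members were chosen by name. They are the 5p arms mmu-miR-30a-5p, mmu-miR-30b-5p, mmu-miR-30c-5p, mmu-miR-30d-5p and mmu-miR-30e-5p and the 3p arms mmu-miR-30a-3p, mmu-miR-30b-3p, mmu-miR-30d-3p, mmu-miR-30e-3p and mmu-miR-30c-2-3p, 10 of the 1915 mature miRNA names in the count table. The data hold 2 libraries, labelled biological replicates 1 and 2 of this single condition, so there were no treated or mutant cells to compare with, and the labels do not say whether the replicates came from separate mice. The study describes a larger number of such libraries, of which these were used here, so every SD rests on n = 2. BMDMs are raised in vitro with L-cell conditioned medium and stand for resting macrophages of the culture dish rather than of a tissue. The counts summed to 7322969 in replicate 1 and 8094314 in replicate 2. Each level below is the count of a name as a percent of its library total, and its interval is the 95% Wilson interval. Intervals of ratios are 95% intervals from the SE of the log ratio. All intervals, limits and p-values cover counting error only, not the spread between the libraries. Reads amplified by PCR and carrying no molecular identifier do not count separate molecules, so the counting error of molecules may be larger than given.

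A miRNA hairpin is cut by Drosha and Dicer into a short duplex whose strands come from the 5p and 3p arms. In most hairpins the strand loaded into Argonaute, the guide, accumulates, while the other, the passenger, is degraded. The guide recognises target mRNAs mainly through its seed, bases 2 to 8. The miR-30 family is known for targets such as Beclin 1, a protein that starts autophagy, and Dll4, a ligand of Notch receptors.

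Mature sequences from RefSeq (GRCm38.p6) were matched for 6 of the 10 members, and the members from the hairpins of miR-30b and miR-30d are given by name only. The sequences below are shown because they define which members share a seed, in capitals, and how little separates some of them. The name miR-30c-1-3p, the 3p arm of the other miR-30c hairpin, is listed in the table and is shown with them.

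mmu-miR-30a-5p: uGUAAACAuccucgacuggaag

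mmu-miR-30c-5p: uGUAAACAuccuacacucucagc

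mmu-miR-30e-5p: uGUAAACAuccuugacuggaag

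mmu-miR-30a-3p: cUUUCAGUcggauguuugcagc

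mmu-miR-30e-3p: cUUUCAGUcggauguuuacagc

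mmu-miR-30c-1-3p: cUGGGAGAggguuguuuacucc

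mmu-miR-30c-2-3p: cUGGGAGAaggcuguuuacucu

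The 5p arms of miR-30a, miR-30c and miR-30e share the seed GUAAACA, whereas the 3p arms shown fall into 2 seed groups, UUUCAGU for miR-30a and miR-30e and UGGGAGA for both miR-30c hairpins. miR-30a-5p and miR-30e-5p differ at a single base, C13U, counted from 1 at the 5′ end of miR-30a-5p. Their 3p arms likewise differ at a single base, G18A from miR-30a-3p to miR-30e-3p. The 5p arms of miR-30a, miR-30c and miR-30e have the same first 12 bases, UGUAAACAUCCU, which were found on the given strand of 4 of 1005 RefSeq hairpins (0.398%), those of Mir30a, Mir30c-1, Mir30c-2 and Mir30e. The hairpins of Mir30b and Mir30d were not analysed for this start. A read must therefore extend to base 13 before it can be placed among these 3 names. How the authors treated mismatches and reads with several matches was not given in the sources used here, and an exchange of reads between members was not tested. Of the names with at least 50 counts over both libraries, 17 held exactly the counts of another name in both libraries and none of these was a miR-30 name, which does not bear on an exchange of part of the reads.

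The family lies in 3 loci of 2 hairpins each. Mir30a (chr1:23272269-23272339, plus strand, GRCm38.p6) lies 19361 bases from Mir30c-2 (chr1:23291701-23291784, plus strand). In the GENCODE annotation of GRCm38 Mir30c-2 falls within an exon of the lincRNA Gm27028, and no other gene overlaps Mir30a. Mir30c-1 (chr4:120769534-120769622) and Mir30e (chr4:120772606-120772697) lie 2983 bases apart on the minus strand, both within introns of Nfyc on the same strand, the gene of a subunit of the transcription factor NF-Y. Mir30b and Mir30d lie 3697 bases apart on the minus strand of chromosome 15, and the annotated exons of noncoding transcripts overlap both. The hairpins are shown with the mature arms in capitals, because the locus of a read can be told for the 3p arms of miR-30c but not for its 5p arm, which is the same in both hairpins.

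Mir30a: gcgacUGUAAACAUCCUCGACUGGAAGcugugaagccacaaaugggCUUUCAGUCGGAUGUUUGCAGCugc

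Mir30c-2: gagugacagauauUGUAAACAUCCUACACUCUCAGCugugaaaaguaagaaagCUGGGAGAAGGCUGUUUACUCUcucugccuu

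Mir30c-1: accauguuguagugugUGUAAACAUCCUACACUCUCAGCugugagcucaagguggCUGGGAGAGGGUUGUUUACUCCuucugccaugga

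Mir30e: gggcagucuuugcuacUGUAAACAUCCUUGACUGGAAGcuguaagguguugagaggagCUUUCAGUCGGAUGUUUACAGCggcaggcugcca

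The cells carried the miRNAs of the myeloid lineage. The 6 names taken as myeloid or macrophage markers, miR-21a-5p, miR-146a-5p, miR-142a-5p, miR-142a-3p, miR-223-3p and miR-511-3p, held 35.7% of the counts in replicate 1 and 35.4% in replicate 2, and all 6 were detected in both. Most of this was miR-21a-5p, at 27.97% and 25.71%. The study also describes miR-21 in endothelial and smooth muscle cells, so the sum is not a measure of the myeloid lineage alone. The near-equal sums covered unequal members, since miR-146a-5p held 2.76% of replicate 1 and 5.96% of replicate 2, whereas miR-142a-5p held 3.70% and 2.93%, miR-223-3p 0.605% and 0.448%, miR-142a-3p 0.601% and 0.363%, and miR-511-3p 0.0444% and 0.0351%. Markers of other cells were rare. The 3 erythroid names summed to 0.0541% and 0.0456%, nearly all of it miR-486a-5p, and the 4 names of fibroblasts and stroma to 0.0232% and 0.0153%, led by miR-143-3p. The 5 epithelial names summed to 0.00782% and 0.00570%, led by miR-141-3p with 433 and 348 counts. Their list holds miR-200c-3p but not miR-200b-3p, which had 496 and 827 counts, or miR-200a-3p, which had 71 and 76. The lymphocyte miRNA miR-150-5p held 0.00276% and 0.00109%, and the endothelial miRNA miR-126a-3p held 0.00141% and 0.00109%. The other arm of that hairpin, miR-126a-5p, was not listed and was higher, with 355 and 286 counts against 103 and 88. The neuronal miR-124-3p, the liver miRNA miR-122-5p and the muscle miRNAs miR-1a-3p and miR-206-3p had 0 counts in both libraries, while the neuronal miR-9-5p had 12 and 11 counts and the muscle miRNA miR-133a-3p had 0 and 6.

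The 10 members together held 360305 counts in replicate 1, 4.92% of the library, and 478894 in replicate 2, 5.92%, a mean of 5.42% ± 0.704 (SD, n = 2). Almost all of this came from the 5p arms, which held 5.36% ± 0.708 (SD, n = 2), against 0.0553% ± 0.00333 (SD, n = 2) for the 3p arms. Grouped by name and arm, the miR-30 5p arms ranked 5 in replicate 1 and 6 in replicate 2 among 1635 groups. Above them in both libraries stood miR-21, miR-22, miR-27 and let-7, and in replicate 2 also miR-146, with 6.19% against 5.86%. Grouped by seed instead, over the 1623 names with a RefSeq sequence, miR-30a-5p, miR-30c-5p and miR-30e-5p alone held 1.86% ± 0.126 (SD, n = 2) and ranked 10 in replicate 1 and 9 in replicate 2 among 1352 seeds. With miR-30b-5p and miR-30d-5p added to that group by name, a choice made after seeing the data, it held 5.36% and ranked 5 and 6. The seed group also holds miR-384-5p, which had 0 counts in both libraries, which allows a share of up to 4.10e-05% and 3.71e-05% if 3 counts are taken as the limit.

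Within the 5p arms, miR-30d and miR-30e were by far the most abundant and miR-30a the least. miR-30d-5p held 200262 counts in replicate 1, 2.73% of the library (95% interval 2.72 to 2.75), and 290555 in replicate 2, 3.59% (95% interval 3.58 to 3.60). It ranked 7 and 5 among all names. miR-30e-5p held 101750 counts, 1.39% of the library, and 123486 counts, 1.53%. miR-30d-5p thus exceeded miR-30e-5p 1.97-fold in replicate 1 and 2.35-fold in replicate 2, a gap larger than the SD of either.

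miR-30b-5p held 26361 and 26477 counts, or 0.360% and 0.327% of the libraries. miR-30c-5p, the sum of its 2 hairpins, held 22971 and 27059 counts, or 0.314% and 0.334%. The order of this pair was not resolved, since miR-30b-5p was the higher in replicate 1 and miR-30c-5p in replicate 2, and their mean levels differed by less than the SD of miR-30b-5p. miR-30a-5p was the lowest, with 4741 counts, 0.0647%, in replicate 1 and 7034 counts, 0.0869%, in replicate 2. miR-30d-5p exceeded it 42.2-fold and 41.3-fold in the 2 libraries.

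As shares of the summed 5p counts, miR-30d-5p made up 58.7% ± 3.52, miR-30e-5p 27.3% ± 1.81, miR-30b-5p 6.49% ± 1.29, miR-30c-5p 6.08% ± 0.530 and miR-30a-5p 1.41% ± 0.107 (SD, n = 2 for each). For comparison, the 10 5p names that carry let-7 in the name, among them let-7j and let-7k, held 6.53% of replicate 1 and 6.70% of replicate 2, more than the miR-30 5p arms in both. They leave out miR-98-5p, which has the let-7 seed and held 13392 and 13299 counts. The leading let-7 member, let-7f-5p, made up 40.8% ± 2.51 (SD, n = 2) of its family. The leading member therefore held a larger part of the family in miR-30 than in let-7 in both libraries, 56.2% against 39.0% in replicate 1 and 61.2% against 42.5% in replicate 2.

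**Figure D1:**
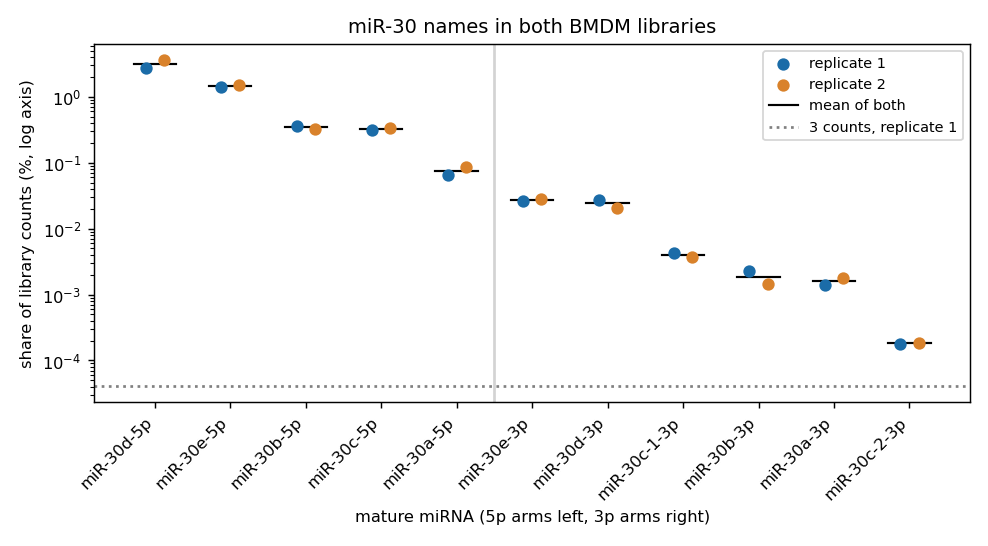
Share of library counts of the 10 members and of miR-30c-1-3p, in percent on a log axis, with a point per library, the mean as a bar and the level of 3 counts as a dotted line. The 5p arms run from 3.16% (miR-30d-5p) to 0.0758% (miR-30a-5p) on average, and even the lowest 5p arm lies above the highest 3p arm.

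The 3p arms were all detected, but the most abundant of them, miR-30e-3p and miR-30d-3p, lay below the least abundant 5p arm. miR-30e-3p held 1919 counts in replicate 1 and 2312 in replicate 2. miR-30d-3p held 2023 and 1694 counts. The ratio of miR-30d-3p to miR-30e-3p was 1.05 in replicate 1, with an interval that includes equal levels (0.990 to 1.12), and 0.733 in replicate 2 (0.688 to 0.780), so that their order was not resolved. The ratio of miR-30d to miR-30e was thus lower in the 3p arms than in the 5p arms in both libraries. miR-30b-3p held 164 and 118 counts and miR-30a-3p 101 and 144, and their order changed as well. miR-30c-2-3p was close to the limit of detection, with 13 counts in replicate 1 and 15 in replicate 2.

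**Figure D2:**
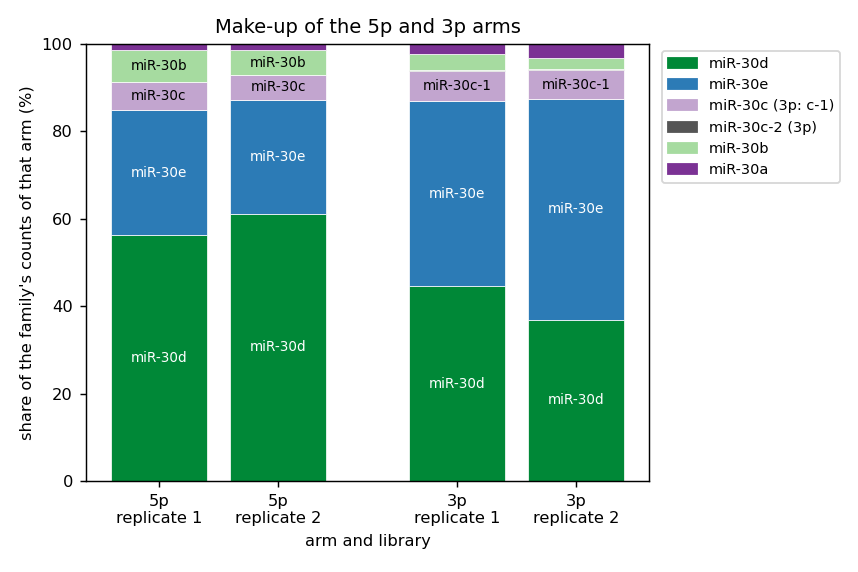
Make-up of the 5p counts and of the 3p counts of the family in each library, in percent of the counts of that arm, with miR-30c-1-3p included among the 3p arms. miR-30d makes up 56.2% and 61.2% of the 5p counts but 44.6% and 37.0% of the 3p counts.

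The locus on chromosome 1 holds miR-30a and miR-30c-2. Its 3p arms gave few reads, and miR-30a-5p was the lowest of the 5p arms. How much of miR-30c-5p came from this locus is not known. miR-30c-1-3p, with 317 and 299 counts, exceeded miR-30c-2-3p 24.4-fold in replicate 1 (95% counting interval 14.0 to 42.5) and 19.9-fold in replicate 2 (11.9 to 33.5). miR-30e, the neighbour of miR-30c-1, exceeded miR-30a, the neighbour of miR-30c-2, by a like factor in both arms. In the 5p arms the ratio was 21.5 in replicate 1 and 17.6 in replicate 2. In the 3p arms it was 19.0 (15.6 to 23.2) and 16.1 (13.6 to 19.0), and these intervals contain the 5p ratios. Summed over each locus, the 3p arms from chromosome 1 made up 2.51% and 3.47% of the 3p counts, those of Nfyc on chromosome 4 49.3% and 57.0%, and those from chromosome 15 48.2% and 39.5%. With miR-30c-5p left out because its hairpin is not known, the same loci gave 1.42% and 1.57%, 30.5% and 27.6%, and 68.0% and 70.8% of the 5p counts. With miR-30c-5p left out, the chromosome 1 locus was the lowest in both arms and both libraries. The chromosome 15 locus was the highest by its 5p arms. By its 3p arms its order with the chromosome 4 locus was not resolved in replicate 1, with 2187 against 2236 counts, and in replicate 2 it was the lower, with 1812 against 2611. The 3p arms of miR-30a and miR-30e differ at a single base, as do their 5p arms, so these ratios rest on how reads with mismatches were assigned. On the strand opposite to Mir30e, the name miR-30f (gUAAACAUccgacugaaagcuc, bases 2 to 8 in capitals) held 2 counts in replicate 1 and 0 in replicate 2, below the limit of 3 counts.

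In every miR-30 hairpin with its own pair of arms, the 5p arm exceeded the 3p arm by a wide margin. The 5p share of the counts of both arms was 97.9% and 98.0% for miR-30a in replicates 1 and 2, 98.1% and 98.2% for miR-30e, 99.0% and 99.4% for miR-30d, and 99.4% and 99.6% for miR-30b. miR-30c-5p made up 99.9% of the counts when set against miR-30c-2-3p, the listed arm, and 98.6% and 98.9% when the 3p arms of both its hairpins were counted. These shares correspond to a 5p count 46.9-fold and 48.8-fold the 3p count for miR-30a, and 161-fold and 224-fold for miR-30b. Across all 176 hairpins with both arms listed and at least 100 counts, the 5p arm held more counts in both libraries in 95, or 54.0%, and the 3p arm in 75. All 4 miR-30 hairpins of that set were on the 5p side. A share at least that of miR-30a, the lowest of the 4, was reached in both libraries by 42 of the 176, the miR-30 hairpins included (23.9%), and by mean share miR-30a ranked 48. Among the 95 hairpins led by the 5p arm, the median of the mean 5p shares was 97.954%, the value of miR-30a itself, so its margin was typical of that group. Among the let-7 hairpins with their own pair of arms, let-7g had a 5p share of 99.7% in both libraries and let-7i of 99.8%, above the 4 miR-30 hairpins. let-7e, with 97.7% and 97.6%, let-7b, with 95.50% and 95.03%, and let-7d, with 77.2% and 73.7%, lay below them.

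**Figure D3:**
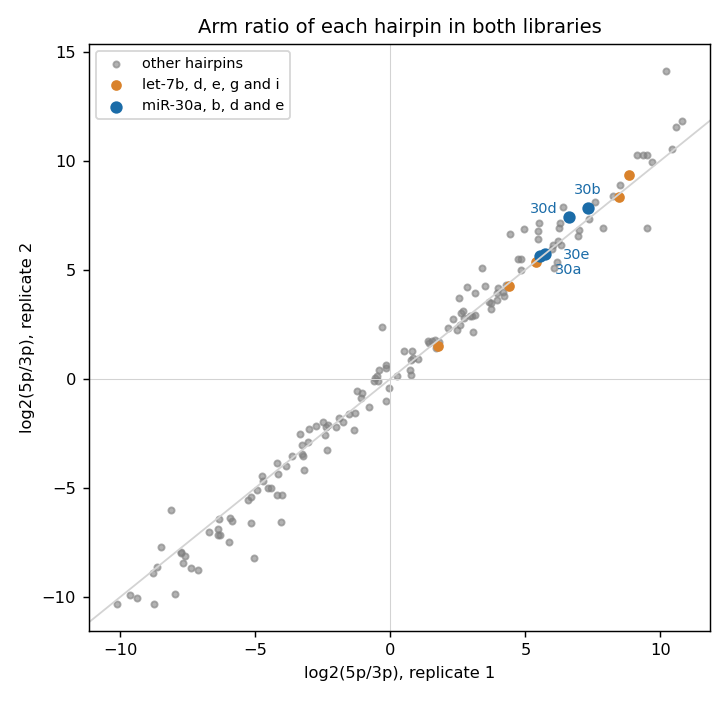
Log2 ratio of 5p to 3p counts in replicate 1 (x axis) and replicate 2 (y axis) for the 153 of 176 hairpins with counts of both arms in both libraries, with the line of equal ratios. The 4 miR-30 hairpins lie in the upper right, miR-30a and miR-30e on the line and miR-30b and miR-30d above it.

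The 5p arms with a RefSeq sequence all begin with U and the 3p arms all begin with C. Of the 131 hairpins in the set with both sequences, the 5p arm was the higher in both libraries in 77 (58.8%). Among them, 41 had U at the start of the 5p arm and another base at the start of the 3p arm, and in 35 of these the 5p arm was the higher in both libraries. In the reverse arrangement, with U at the start of the 3p arm only, the 5p arm was the higher in 6 of 27. Where both arms began with U it was the higher in 8 of 11, and where neither did, in 28 of 52. Of the 20 hairpins with U and C, the arrangement of miR-30a and miR-30e, 19 had more 5p counts. These counts describe hairpins, of which some belong to the same family, and were not tested.

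The libraries differed in their levels of the family, and the single condition allows this to be read only as the spread between replicates. By Fisher's exact test of each name against the rest of its library, two-sided and adjusted by Benjamini-Hochberg over 588 names with at least 10 counts, 5 of the 10 members were higher in replicate 2, where 13.8% of all names were, and 3 were lower, where 30.4% of all names were. The test compares these libraries, its calls rest on counting error alone, and a share also differs where other names change the total. A smaller difference is therefore called in an abundant name than in a rare one. The percents of all names include many rare ones and are not those of names as abundant as the 5p arms. An excess of calls among the members cannot be read from them. Higher in replicate 2 were miR-30a-5p, with a log2 ratio of shares of 0.42 ± 0.027 (counting SE), miR-30d-5p with 0.39, miR-30e-5p with 0.13, miR-30e-3p with 0.12 and miR-30c-5p with 0.09. Lower were miR-30b-3p with -0.62 ± 0.17, miR-30d-3p with -0.40 ± 0.048 and miR-30b-5p with -0.14, whose sign changed with DESeq2 size factors, at 0.0063. Of these 8, the highest adjusted p by the exact test was that of miR-30e-3p, 0.0136. miR-30a-3p, at 0.37 ± 0.19 (adjusted p = 0.112), and miR-30c-2-3p, at 0.06 ± 0.55 (adjusted p = 1), did not pass the test.

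The median log2 ratio of all 588 names was -0.16, a value that counts rare and abundant names alike. With TMM library sizes the median was -0.03, and 122 names were called higher and 137 lower in replicate 2, against 81 and 179 with library totals. Among the members 6 were then called higher and 2 lower. miR-30a-3p joined the higher ones, at 0.50, and miR-30b-5p, at -0.01, no longer passed the test. The median over the 10 members was 0.11 with library totals and 0.24 with TMM. Among the 57 names with a mean count of at least 10000, 42 were at least as high as miR-30b-5p with library totals. Most of these abundant names thus lay above the median of all names. Their median distance from 0 was 0.15, and 9 names, miR-30d-5p included, were at least as far from 0 as miR-30d-5p. The other abundant 5p arms stood out less, with 34 names at least as far as miR-30e-5p, 31 as miR-30b-5p and 41 as miR-30c-5p. The shares of the myeloid markers given above differed as well, with more miR-146a-5p and less miR-142a-3p and miR-223-3p in replicate 2. The marker sums of erythroid, stromal, epithelial, lymphocyte and endothelial miRNAs were lower in replicate 2. This did not hold for every name in them, since miR-451a had 7 and 8 counts and miR-375-3p 5 and 11. miR-126a-3p, the only endothelial name, did not pass Fisher's exact test (adjusted p = 0.160). The epithelial sum depends on the names listed, since miR-200b-3p, which was not among them, was higher in replicate 2, at 0.59. The part of these markers in these ratios was not tested. In bulk RNA, a change in the number of cells of a kind and a change in RNA per cell cannot be told apart.

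**Figure D4:**
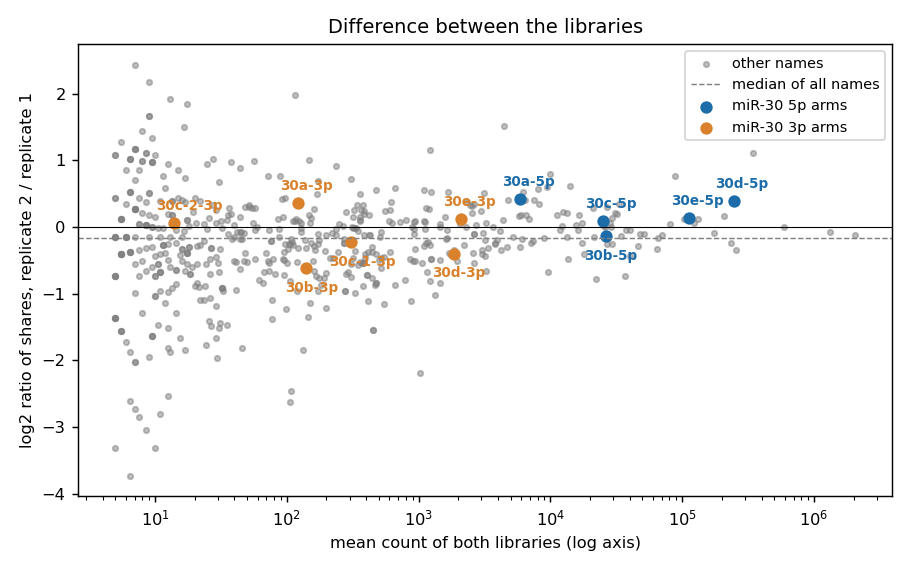
Log2 ratio of library shares, replicate 2 over replicate 1, against the mean count on a log axis for 588 names, with the miR-30 5p arms in blue and the 3p arms in orange. Of the 5p arms only miR-30b-5p lies below 0, at -0.14 with library totals and at 0.0063 with DESeq2 size factors, while miR-30d-3p (-0.40) lies far from its own 5p arm (0.39).

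The balance of the arms differed between the libraries for miR-30d and miR-30b, the neighbours on chromosome 15. miR-30d-5p held more counts in replicate 2, 290555 against 200262, and miR-30d-3p fewer, 1694 against 2023, so the 5p count was 172-fold the 3p count in replicate 2 and 99.0-fold in replicate 1. Tested per hairpin on the 5p and 3p counts of both libraries by Fisher's exact test, which does not depend on library size, arm use differed for miR-30d (adjusted p = 1.4e-60) and miR-30b (adjusted p = 0.021) and a difference was not detectable for miR-30a or miR-30e (adjusted p = 0.997 for both). That is 2 of 4 hairpins, where 31.2% of all 176 were called. The 176 include hairpins with few counts, in which a like difference is harder to detect. With miR-30c-5p set against both of its 3p arms, a further entry chosen after seeing the data, it too was called (adjusted p = 0.026). The log2 difference of the 5p to 3p ratio, replicate 2 over replicate 1, was 0.79 ± 0.048 (counting SE) for miR-30d, 0.48 ± 0.17 for miR-30b and 0.31 ± 0.11 for miR-30c, against 0.06 ± 0.19 for miR-30a and 0.01 ± 0.045 for miR-30e. Among 89 hairpins in which each arm reached 100 counts over both libraries, 11 differed at least as much as miR-30d in either direction and 29 at least as much as miR-30b, these hairpins included, and the median distance from 0 was 0.29. The difference of miR-30d was thus larger than that of most of these hairpins, and that of miR-30e was among the smallest, with 87 of 89 at least as far from 0.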

How the data were processed

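Small RNA libraries (Illumina kit and HiSeq instrument, after rRNA depletion) were analysed for 2 biological replicates of unstimulated WT BMDMs. The authors trimmed the reads, aligned them with Bowtie to miRBase mouse hairpins and deposited raw counts per mature name, without normalization. The miRBase release and the treatment of multiple matches are not given in the sources used here. The submitters' processing notes also name DESeq2.

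From these counts, shares of the library total, shares of the family and 5p shares were computed per library and given as mean and SD. Fisher's exact tests (SciPy 1.17.1) were two-sided with Benjamini-Hochberg adjustment at 0.05, over names with at least 10 counts or hairpins with at least 100, and were tested on simulated data. There, tests against library totals also called many names whose simulated level was unchanged, because changes of other names moved the total, whereas with the known sizes few such names were called. The simulated counts held counting error and the set changes only, which is what the test assumes. They held no spread between replicates, so this outcome does not bear on how the test treats such spread in these libraries. With a single condition there was no contrast for edgeR's quasi-likelihood test. TMM sizes came from edgeR 4.0.16 and size factors from DESeq2 1.42.0 in R 4.3.3. Sequences came from RefSeq (GRCm38.p6), with 1623 of 1915 names matched, and gene overlaps from GENCODE M21.

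The members, marker lists and comparisons were chosen with earlier results of these data known. The names given are the members, other miR-30 names, names sharing their seeds, the 5 leading seed families, the let-7 5p arms and the markers. Given beside the markers are miR-200a-3p, miR-200b-3p and miR-126a-5p. Alternatives were other scalings, count minimums, groupings and each library alone; let-7 arm use was added as a description. Depth, 7322969 and 8094314 counts, makes the counting error of the 5p arms smaller than their SD between the libraries.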

Additional observations from a re-analysis of the deposited data

How the results depend on the processing

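The share of the family, 5.42%, was 4.92% or 5.92% with either library left out. A pooled share, here 5.44%, must lie between these values. The family share moved by less than its SD with a minimum of 10 counts, equal counts entered once, and TMM or DESeq2 scaling. The same held with miR-30c-1-3p and miR-30f added. Without miR-21a-5p in the total the family share was 7.40%, because the total shrinks. The rank of 10 for the shared seed was 9 to 10 with either library left out, 10 for a seed of bases 2 to 7, and 5 with names grouped by root or, chosen after seeing the data, with miR-30b-5p and miR-30d-5p added by name. The part of miR-30d-5p in the 5p counts, 58.7%, became 87.4% when the 5p arms of miR-30a, miR-30d and miR-30e were summed, by construction. The 5p share of the 10 members, 99.0%, moved by less than its SD with the 3p arms of both miR-30c hairpins. With 2 libraries, pooling reads or leaving a library out cannot move a share beyond its SD, so these settings were no check. With DESeq2 scaling, under which both size factors were 1, the log2 ratio of miR-30b-5p changed sign to 0.0063 and did not pass the test. The number of members called between the libraries was 8 under each of 4 alternatives, but not the same members, since miR-30a-3p replaced miR-30b-5p under both scalings. The number of miR-30 hairpins called for arm use was 2 also at minimums of 10 and 1000 counts, and 3 with miR-30c added after seeing the data. Depth limits the rarer 3p arms, among them miR-30c-2-3p with 13 and 15 counts and miR-30a-3p with 101 and 144.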
